A study of Homo sapiens with 30 samples.

Results

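Glycolysis splits glucose into pyruvate in the cytosol, and the pentose phosphate pathway branches from its upper part. The genes described here were 34 members of these pathways, taken as a fixed list by function: 4 hexose transporters, 3 hexokinases, 6 enzymes of upper glycolysis, 3 enzymes that make or break fructose-2,6-bisphosphate, 7 enzymes of lower glycolysis, 5 genes of lactate handling and 6 pentose phosphate enzymes. They were 34 of 61551 gene identifiers listed in either of the count tables. The rule for membership was function in these pathways and used no measured value, but the list was drawn up with earlier results of these data known.

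Hexose enters the cell through the SLC2A (GLUT) carriers and is trapped by hexokinases. Phosphofructokinase commits it to glycolysis and is switched on by fructose-2,6-bisphosphate, whose level the PFKFB enzymes set. The pyruvate that pyruvate kinase makes has 2 main fates. It crosses into mitochondria through the mitochondrial pyruvate carrier, of which MPC1 is a subunit, or lactate dehydrogenase turns it into lactate, which leaves with a proton through the monocarboxylate transporters SLC16A1 (MCT1) and SLC16A3 (MCT4). The pentose phosphate pathway uses the same sugar to make NADPH and ribose phosphate, and leukemia cells are known to run both routes at a high rate.

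RNA was sequenced from 30 libraries of human acute myeloid leukemia (AML) lines, in 10 groups of 3. In the miR-1 series (12 libraries), a lentivirus with an EF1α promoter brought GFP and an insert that yields mature miR-1 into MV4-11 and Molm-14 (OE, overexpression), and the control virus brought GFP alone (EV, empty vector). In the MPC1 series (18 libraries), a lentiviral CRISPR/Cas9 construct with GFP and a single guide against MPC1 was used in MV4-11, Molm-14 and THP-1 (KO, knockout), with an empty vector as the control (EV). Of these lines, MV4-11 and Molm-14 have the FLT3-ITD mutation, which THP-1 lacks, and all lines were grown under normoxia in a medium that holds glutamine and sodium pyruvate. Nothing in the labels says whether the libraries of a group came from separate infections, clones or cultures, so the p-values measure the spread between these libraries, which may be technical.

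Each library held 15543301 to 20939985 counts in the miR-1 series and 5339360 to 9106478 counts in the MPC1 series. Levels are given in counts-per-million (CPM) on TMM-scaled library sizes, fold changes on the log2 scale from edgeR's quasi-likelihood test, and a gene was called at a false discovery rate (FDR, Benjamini-Hochberg over all genes tested) under 5%. All 34 members passed the filter on low counts in the miR-1 series, where 17542 genes were tested, and 33 passed in the MPC1 series, where 14490 were tested and the neuronal enolase ENO2 was not. The defining myeloid genes PTPRC, CD33, SPI1 and CEBPA were expressed in all 3 lines and the summed T cell list stayed at or under 0.938 CPM, while PAX5, a B cell gene, was present in Molm-14. CD14 was near 0 in MV4-11 and Molm-14. In these bulk samples, fewer cells of a kind and less RNA per cell cannot be told apart.

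The manipulated genes were examined first. MPC1 stood at 53.7 to 58.3 CPM in MV4-11 EV and 23.5 to 26.0 CPM in MV4-11 KO, at 72.9 to 80.0 and 33.2 to 41.0 CPM in Molm-14, and at 90.6 to 100.3 and 50.3 to 58.9 CPM in THP-1. KO and EV libraries did not overlap in any line, and the KO libraries kept a sizeable part of the transcript (log2 fold changes −1.18, −1.04 and −0.84, edgeR FDR 1.33e-08, 3.41e-08 and 6.32e-06). MIR133A1HG, the host transcript of the MIR1-2 hairpin, had 0 CPM in all EV libraries and 2.26 to 4.06 CPM in the OE libraries of both lines. These counts can come from the vector.

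The sequences that matter for the OE comparison are those of the mature miRNA and its best matches among the members. A miRNA lowers transcripts whose 3′ UTR pairs with its seed (bases 2 to 8), and the match counts most where it is followed by an A (an 8mer, ACATTCCA) rather than another base (a 7mer-m8, ACATTCC). The mature miR-1 is given from RefSeq with the seed in capitals, and 3 sites in the 3′ UTR of the canonical transcripts (GENCODE release 44, GRCh38) are given as DNA of the gene's strand with the paired stretch in capitals. PGD is an enzyme of the oxidative branch of the pentose phosphate pathway, TKT is its transketolase, and PFKFB2 makes fructose-2,6-bisphosphate. The PGD site (8mer, chr1:10419776-10419798, plus strand) starts 42 bases after the stop codon, the TKT site (7mer-m8, chr3:53225717-53225739, minus strand) 32 bases after it, and the PFKFB2 site (8mer, chr1:207076368-207076390, plus strand) 4012 bases after it.
hsa-miR-1-3p: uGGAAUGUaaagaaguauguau
PGD site: attccacagaccaggACATTCCA
TKT site: ggggcgggggtctatACATTCCt
PFKFB2 site: tatgtaatcttatgcACATTCCA
These were the 3 members of 34 with an 8mer or 7mer-m8, and 13.1% of 12567 tested genes with a 3′ UTR held one. Another 5 members had only the weaker 7mer-A1 (CATTCCA; PFKFB3, PFKFB4, PGAM1, RPE and SLC16A3, against 8.80% of genes), and 26 had no match (78.1% of genes). A match describes the letters in the transcript and not a site in use.

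Members differed widely in level. Per kilobase of canonical transcript, GAPDH led both series, with 2015 CPM per kb in the miR-1 series and 1924 in the MPC1 series, followed by ENO1 with 858 and 1320. At the other end stood the muscle phosphofructokinase PFKM (0.536 and 1.23 CPM per kb) and ENO2 (0.853 and 0.239 CPM per kb). PFKM overlaps SENP1 on the opposite strand, and SENP1 had 56.3 CPM against 1.65 CPM for PFKM in the miR-1 series. The strand setting of the counting is not given in the sources used here, so PFKM is reported as uncertain. The same holds for PFKFB2 with YOD1, HK3 with UNC5A, SLC16A3 with CSNK1D and RPE with KANSL1L, and ALDOC and ENO2 overlap RSKR and LRRC23 on their own strand.

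The MPC1 knockout was aimed at the mitochondrial entry of pyruvate, and the members were compared between KO and EV in each line. How far that entry was closed cannot be read from RNA. In MV4-11, 5 of 33 tested members were called, against 5.41% of all genes: the transporters SLC2A5 and SLC2A1 rose (3.17% of all genes were called higher), and PGD, LDHA and GPI fell (2.24% were called lower). The median log2 fold change over the members was −0.01, and over all genes 0.02. In Molm-14 none of 33 was called (2.4% of all genes), and in THP-1 none (0.0897% of all genes). DESeq2 also called 5, 0 and 0 in MV4-11, Molm-14 and THP-1. An unadjusted edgeR p under 0.05 was held by 3 members in Molm-14, against 1552 of 14490 genes. In THP-1 it was held by 1 member, against 1160 of 14490 genes.

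SLC2A5 (GLUT5), a fructose carrier, had the largest rise. It stood at 36.3, 32.6 and 35.6 CPM in the MV4-11 EV libraries and at 55.8, 58.3 and 55.6 CPM in the KO libraries. The groups lay far apart and each was tight (log2 fold change 0.70, SE 0.093, edgeR FDR 5.18e-05, a fold of 1.62 with a 95% interval of 1.42 to 1.85). In Molm-14 it stood at 30.1, 25.5 and 26.2 CPM in EV and 33.5, 35.0 and 32.8 CPM in KO. Those groups did not overlap either, but the difference was smaller and not called (log2 fold change 0.32, edgeR FDR 0.112). In THP-1, which held far more of it, EV libraries had 203, 175 and 167 CPM and KO libraries 193, 173 and 186 CPM. These overlap (log2 fold change 0.02, 95% interval −0.15 to 0.19). In the miR-1 series SLC2A5 spread more among the MV4-11 EV libraries, at 87.3, 70.2 and 133 CPM.

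SLC2A1 (GLUT1), the general glucose carrier, had 91.1, 83.9 and 90.4 CPM in MV4-11 EV and 101, 118 and 113 CPM in KO. All KO libraries were above all EV libraries, with a log2 fold change of 0.32 (SE 0.097) and an edgeR FDR of 0.0491, just under the threshold. The call was kept in 4 of 11 alternatives, and leaving out a library gave an edgeR FDR between 0.042 and 0.165. The log2 fold changes in Molm-14 and THP-1 were 0.20 and 0.15 (edgeR FDR 0.581 and 0.690).

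PGD, 6-phosphogluconate dehydrogenase, makes NADPH in the oxidative branch. Its level was 243, 336 and 349 CPM in MV4-11 EV and 208, 195 and 201 CPM in KO. Every KO library was below every EV library, and EV replicate 1 lay nearer to KO than the other two EV libraries (log2 fold change −0.62, SE 0.097, edgeR FDR 4.16e-04). In Molm-14 PGD stood at 151, 155 and 141 CPM in EV and 152, 162 and 165 CPM in KO, which overlap (log2 fold change 0.10, edgeR FDR 0.812). In THP-1 it stood at 174, 177 and 149 CPM in EV and 140, 142 and 145 CPM in KO, with no overlap but no call (log2 fold change −0.23, edgeR FDR 0.565).

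LDHA, the lactate dehydrogenase subunit that favors lactate formation, had 427, 562 and 566 CPM in MV4-11 EV and 433, 373 and 409 CPM in KO. The groups overlap through EV replicate 1 (log2 fold change −0.36, SE 0.089, edgeR FDR 0.0193). GPI, which turns glucose-6-phosphate into fructose-6-phosphate, had 457, 552 and 566 CPM in EV and 414.5, 426 and 420.1 CPM in KO. These groups did not overlap, and EV replicate 1 was again the lowest EV library (log2 fold change −0.32, SE 0.085, edgeR FDR 0.0282). In Molm-14 the log2 fold changes were 0.12 for LDHA and 0.09 for GPI, and in THP-1 they were −0.10 and 0.02, with no call. LDHA kept its call in 7 and GPI in 5 of 11 alternatives, while SLC2A5 and PGD kept theirs in all 11.

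EV replicate 1 of MV4-11 in the MPC1 series stood apart from the other EV libraries for PGD, LDHA and GPI in the direction of KO. Its share of counts from the mitochondrial genome was 0.211%, against 0.452% and 0.392% in EV replicates 2 and 3 and 0.140% to 0.202% in the KO libraries. The part of this share in the result was not tested. Without that library 8 members were called, adding HK2, PFKFB2 and RPIA to the 5, and without EV replicate 2, EV replicate 3 or KO replicate 2 the calls were SLC2A5 and PGD alone. Without KO replicate 1 or KO replicate 3 they were SLC2A5, PGD and LDHA. The share of all genes called with a library left out is not given, so these counts compare fits only.

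**Figure D1:**
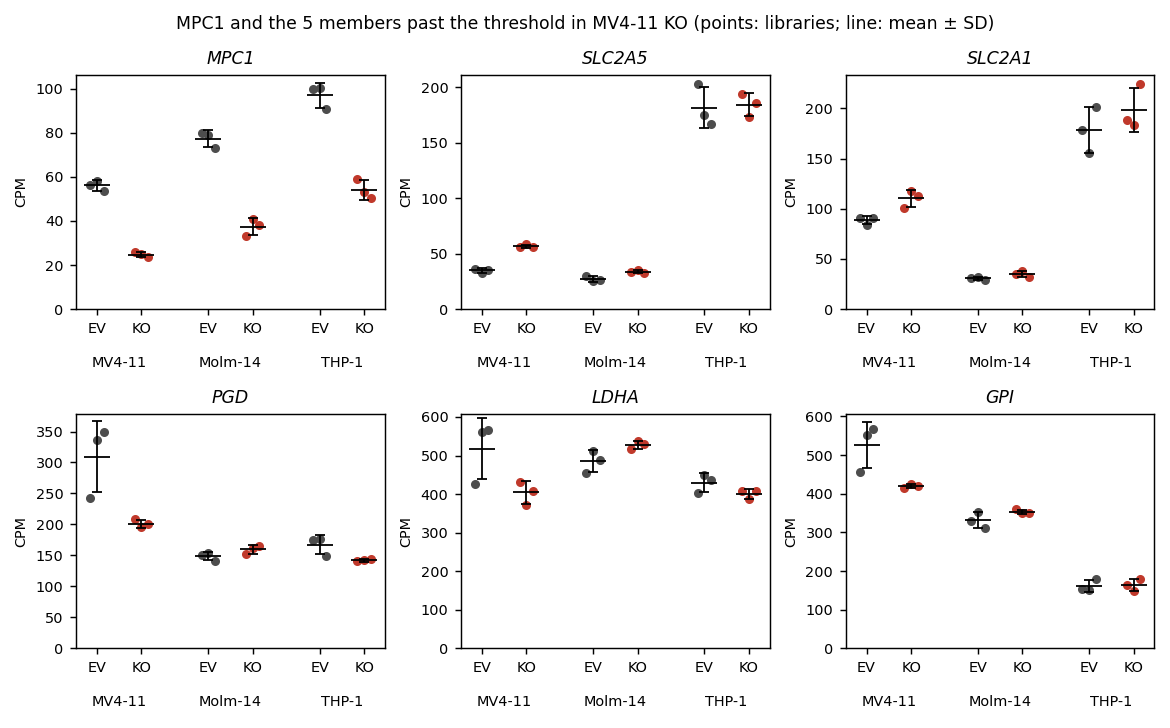
CPM (y axis, starting at 0) of MPC1 and of the 5 members called in MV4-11 KO, in each EV (dark) and KO (red) library of the 3 lines, with mean ± SD (n = 3). SLC2A5 rises in MV4-11 from at most 36.3 to at least 55.6 CPM and overlaps in THP-1, and the low EV library of MV4-11 is visible for PGD (243 CPM), LDHA (427 CPM) and GPI (457 CPM).

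Averaged over the 3 lines with equal weight, 3 of 33 members were called, against 3.37% of all genes. SLC2A5 (log2 fold change 0.34, edgeR FDR 2.24e-04) and SLC2A1 (0.23, edgeR FDR 0.0297) rose (1.92% of all genes were called higher), and PGD fell (−0.25, edgeR FDR 0.0125; 1.46% were called lower). SLC2A5 and PGD kept this call in all 22 alternatives. SLC2A1 kept it in 15, and lost it without MV4-11 EV replicate 2 or 3, MV4-11 KO replicate 2, Molm-14 EV replicate 3, Molm-14 KO replicate 1 or 2, or THP-1 EV replicate 2 (edgeR FDR 0.0507 to 0.0868). The KO effect itself differed among the lines for 2 members, against 1.61% of all genes: SLC2A5 (edgeR FDR 0.00785) and PGD (edgeR FDR 0.0120). Between pairs of lines, the effect on PGD was 0.72 lower on the log2 scale in MV4-11 than in Molm-14 (95% interval 0.43 to 1.00, edgeR FDR 0.00547), the only member called there (1.48% of all genes). LDHA just missed the threshold in that pair, with a difference of −0.48 (edgeR FDR 0.0508). The effect on SLC2A5 was 0.68 higher in MV4-11 than in THP-1 (95% interval 0.42 to 0.93, edgeR FDR 0.0109), again the only member (0.193% of all genes). Between Molm-14 and THP-1 no member was called (0.766% of all genes). An unadjusted edgeR p under 0.05 was held by 5 members there, against 1130 of 14490 genes.

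Most members lay close to their EV level. In Molm-14 KO the log2 fold changes were positive for 29 of 33 members with a median of 0.12, against 0.00 over all genes. The median absolute log2 fold change over all genes was also 0.12. Summed CPM of the members overlapped, at 14071, 12620 and 13142 in EV and 14385, 14807 and 13459 in KO. The lowest edgeR FDR was 0.105, for HK1 (0.45 on the log2 scale, from 20.04 to 24.4 CPM in EV and from 26.3 to 33.5 CPM in KO). HK3, a low-abundance hexokinase of myeloid cells, had a log2 fold change of 1.08 in Molm-14 at 0.336 to 0.923 CPM in EV and 1.42 to 1.597 CPM in KO (edgeR FDR 0.212). In THP-1 the log2 fold changes ran from −0.23 to 0.45 with a median of 0.03. The lactate exporters SLC16A1 and SLC16A3 and their chaperone BSG had log2 fold changes of 0.04, 0.06 and −0.19 in MV4-11 (edgeR FDR 0.833, 0.867 and 0.162).

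Promoters of the members were read from RefSeq (GRCh38.p14, 250 bases before to 50 after the start), and 31 of 34 matched. The search was for the hypoxia-response core ACGTG, the E-box CACGTG, which contains that core, and the antioxidant-response core TGACNNNGC, on both strands. They were found in 9, 3 and 6 of the 31 promoters (29.0%, 9.68% and 19.4%). Over 35116 promoters of the same length the shares were 21.4%, 7.26% and 13.3%. Each member was searched in 1 promoter, the first listed for it, while the 35116 were not limited to 1 a gene. Both promoters below belong to members that fell in MV4-11 KO. That of PGD (chr1:10398814-10399113, plus strand) held 1 hypoxia-response core and 1 antioxidant-response core, and that of LDHA (chr11:18394313-18394612, plus strand) held 5 matches to the hypoxia-response core counted on both strands, 2 of its stretches being E-boxes. Capitals mark the motifs.
PGD promoter: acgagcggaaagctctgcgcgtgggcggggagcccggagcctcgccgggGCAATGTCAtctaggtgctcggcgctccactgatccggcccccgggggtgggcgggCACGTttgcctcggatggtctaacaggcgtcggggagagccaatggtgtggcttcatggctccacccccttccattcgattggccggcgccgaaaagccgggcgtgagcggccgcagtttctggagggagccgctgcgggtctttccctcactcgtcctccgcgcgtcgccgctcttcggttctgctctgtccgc
LDHA promoter: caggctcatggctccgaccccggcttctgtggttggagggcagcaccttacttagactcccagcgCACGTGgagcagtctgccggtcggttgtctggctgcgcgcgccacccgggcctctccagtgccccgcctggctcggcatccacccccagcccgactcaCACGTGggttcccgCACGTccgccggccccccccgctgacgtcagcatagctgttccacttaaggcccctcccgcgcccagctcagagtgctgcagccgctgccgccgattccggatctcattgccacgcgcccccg
The windows of SLC2A5 and SLC2A1, which rose, held none of these letters, and that of GPI, which fell, held 1 hypoxia-response core. A link between these letters and the KO effect was not tested.

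To ask whether miR-1 altered these pathways, OE was compared with EV in both lines. No member was called in MV4-11 (0.177% of all genes) or Molm-14 (0.0057% of all genes, a single gene). That gene was MIR133A1HG (log2 fold change 8.53, edgeR FDR 1.10e-04), whose counts can come from the vector. No member was called either in the mean over both lines (0.0684%) or for the difference of the effect between lines (0.0456%). DESeq2 called no member in any of these comparisons. An unadjusted edgeR p under 0.05 was held by 0, 3, 1 and 1 members, against 1035, 768, 980 and 929 of 17542 genes. In MV4-11 the log2 fold changes ran from −0.26 to 0.27 with a median of 0.04, and the 95% interval lay within 1.5-fold either way for 27 of 34 members. In Molm-14 it did so for 25 of 34, and the log2 fold changes ran from −0.97, for the scarce SLC2A6, to 0.32, with a median of 0.00.

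None of the members with the best seed matches was called lower in OE. PGD stood at 223, 242 and 231 CPM in MV4-11 OE and 240, 235 and 232 CPM in EV (log2 fold change −0.02, 95% interval −0.12 to 0.07). In Molm-14 it stood at 205, 198 and 201 CPM in OE and 189, 190.5 and 184 CPM in EV, so that OE was above EV in every library at an unadjusted p of 0.0421 and an edgeR FDR of 1. TKT had log2 fold changes of 0.04 (95% interval −0.06 to 0.14) and 0.01 (−0.09 to 0.11). PFKFB2 was at 14.9 to 16.2 CPM in MV4-11 OE and 15.5 to 16.7 CPM in EV (log2 fold change −0.04, 95% interval −0.31 to 0.24), and had 0 counts in all 6 Molm-14 libraries. For PGD and TKT the lower 95% limits in both lines lay at or above −0.12 on the log2 scale.

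**Figure D2:**
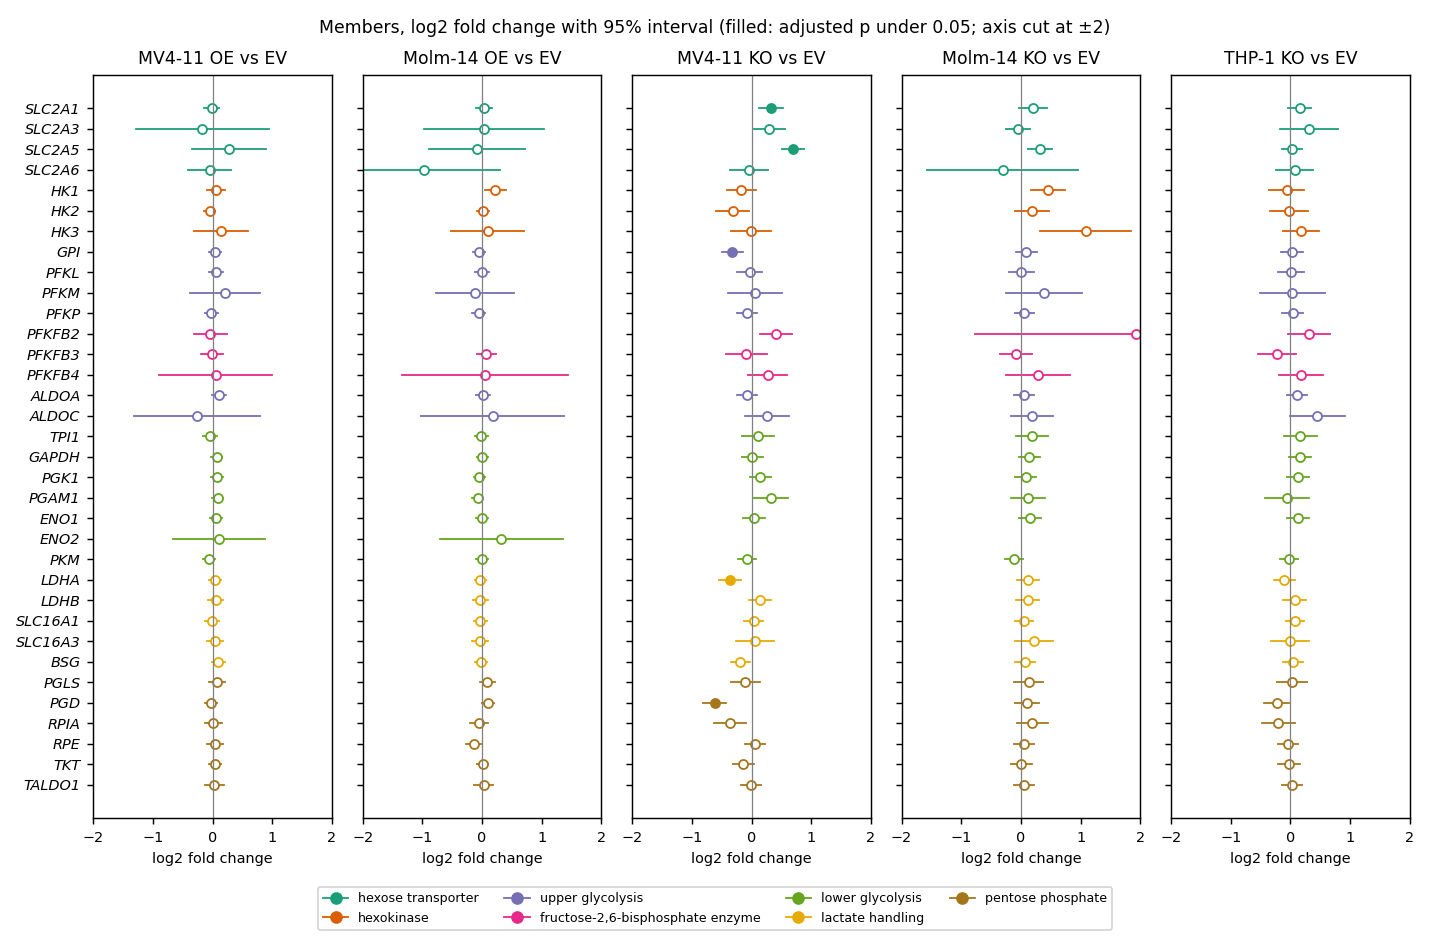
Log2 fold change (x axis, cut at ±2) of the members in the 5 comparisons of OE or KO with EV of the same line, with 95% intervals from edgeR, filled where the FDR is under 5%. Filled points appear in MV4-11 KO alone (SLC2A1, SLC2A5, GPI, LDHA and PGD), ENO2 was not tested in the MPC1 series, and PFKFB2 is absent in Molm-14 OE where all libraries had 0 counts.

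Several members varied more among the MV4-11 libraries of the miR-1 series than between OE and EV. SLC2A3 (GLUT3), a high-affinity glucose carrier, stood at 47.3, 25.4 and 16.1 CPM in OE and 25.8, 16.9 and 57.7 CPM in EV. OE replicate 1 and EV replicate 3 were the highest, and the highest library was 3.58-fold above the lowest. PFKFB4 followed the same libraries, with 34.1, 17.3 and 13.4 CPM in OE and 18.6, 12.2 and 31.6 CPM in EV. ALDOC stood at 21.2, 9.97 and 8.44 CPM in OE and 15.5, 7.14 and 25.04 CPM in EV. SLC2A5 (153, 118 and 79.5 CPM against 87.3, 70.2 and 133 CPM) and ENO2 (4.84, 2.74 and 1.67 CPM against 2.43, 1.88 and 4.30 CPM) had the same 2 libraries on top. SLC2A1, by contrast, ran only from 142 to 155 CPM over the 6 libraries. Over all genes the median ratio of the highest to the lowest MV4-11 library was 1.26, and it reached 3 in 0.986% of genes.

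A list of 18 hypoxia-response genes had the same 2 libraries on top, with sums of 798, 554 and 514 CPM in OE and 569, 509 and 779 CPM in EV. In it DDIT4 stood at 36.3, 8.16 and 3.28 CPM in OE and 7.30, 4.003 and 33.8 CPM in EV, and VEGFA at 121, 65.8 and 44.5 CPM in OE and 62.8, 44.4 and 126 CPM in EV. A list of interferon-stimulated genes summed to 926, 176 and 175 CPM in OE and 167, 170 and 297 CPM in EV, so that it was high in OE replicate 1 above all. The part of either in the member values was not tested. Without both libraries, an alternative chosen after the data were seen, no member was called in MV4-11 OE either. In Molm-14 the 6 libraries of SLC2A3 ran from 88.9 to 92.7 CPM.

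**Figure D3:**
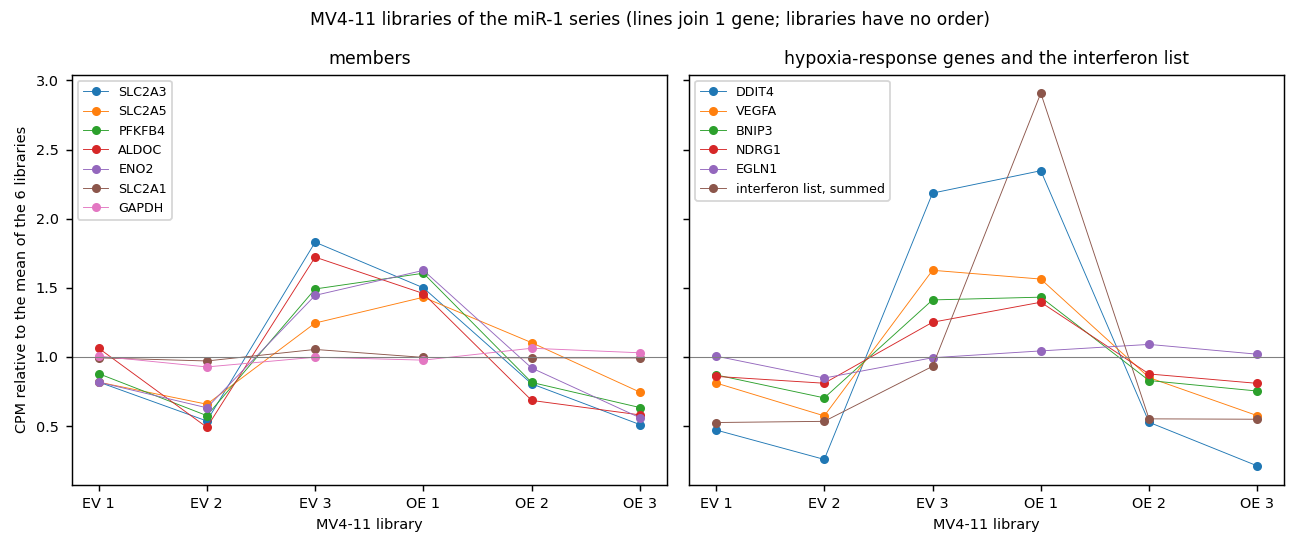
CPM of each of the 6 MV4-11 libraries of the miR-1 series relative to their mean (y axis), for 7 members (left) and for 5 hypoxia-response genes and the summed interferon list (right). EV replicate 3 and OE replicate 1 are the highest for SLC2A3 (57.7 and 47.3 CPM) and DDIT4 (33.8 and 36.3 CPM), while SLC2A1 and GAPDH stay near the mean. Lines join a gene's points and show no order.

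The lines differed far more than the manipulations. Between MV4-11 EV and Molm-14 EV, 26 of 34 members were called in the miR-1 series (64.8% of all genes), 19 higher in MV4-11 (32.9%) and 7 lower (31.9%). In the MPC1 series 24 of 33 were called (61.7%), 17 higher (30.1%) and 7 lower (31.6%). The series have no libraries in common, and 21 of 33 members (63.6%) were called in both, against 53.9% of 13627 genes. Of these, 14 were higher and 6 lower in MV4-11 both times, and ALDOA went opposite ways (log2 fold changes −0.16 and 0.23). The level of ALDOA was also unlike in the 2 series, with means of 110 and 1097 CPM in MV4-11 EV. Over all genes, 97.8% of 7341 called in both had the same sign, against 95.2% of the 21 members.

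The hexose carriers differed between the lines in both series. SLC2A6 (GLUT6) stood at 19.1, 15.96 and 21.7 CPM in MV4-11 EV and at 0.316, 0.179 and 0.526 CPM in Molm-14 EV of the miR-1 series (log2 fold change 5.76, edgeR FDR 1.51e-12). In the MPC1 series it was at 16.95, 13.6 and 15.1 CPM against 0.841, 0.338 and 0.396 CPM (4.91, edgeR FDR 2.16e-14). It was low in every Molm-14 library. SLC2A1 was also higher in MV4-11 (1.97 and 1.52), and SLC2A3 was lower (−1.43, edgeR FDR 0.0238, and −2.58, edgeR FDR 9.32e-17). The call of SLC2A3 in the miR-1 series, where MV4-11 EV replicate 3 was high, was kept in 6 of 12 alternatives. SLC2A5 was 2.66 higher on the log2 scale in the miR-1 series and 0.36 higher in the MPC1 series.

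Per kilobase, SLC2A1 made up 53.2% ± 7.7 (SD, n = 3) of the 4 carriers together in MV4-11 EV of the miR-1 series and 59.6% ± 1.1 in the MPC1 series. In Molm-14 EV it made up 28.9% ± 1.8 and 26.3% ± 1.7, and SLC2A3 was the leading carrier with 61.0% ± 1.8 and 53.8% ± 1.8. THP-1 EV had 49.7% ± 4.3 SLC2A1, 41.9% ± 3.8 SLC2A5 and 0.606% ± 0.043 SLC2A3. SLC2A3 shares sequence with 4 copies, SLC2A14 and pseudogenes, whose summed level came to 4.14% of that of SLC2A3 in the miR-1 series and 8.68% in the MPC1 series. In MV4-11 KO the share of SLC2A5 was 24.6% ± 1.2, and in MV4-11 EV of that series 19.4% ± 0.18.

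**Figure D4:**
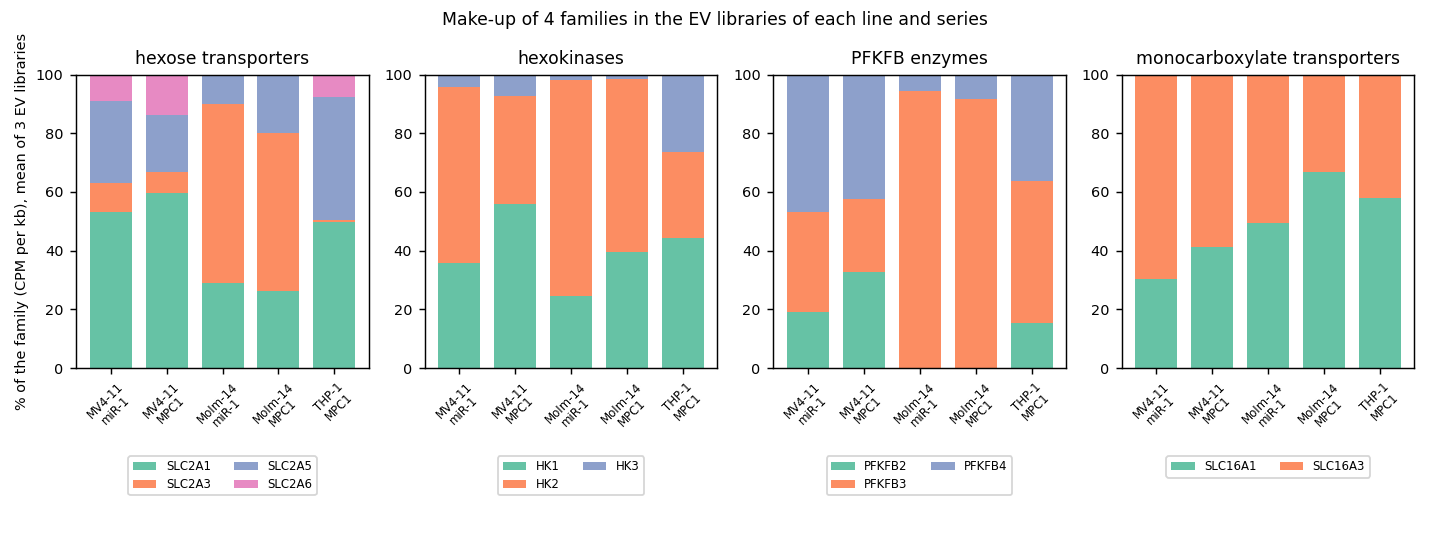
Share of each gene (y axis, percent of the family's summed CPM per kb, mean of 3 EV libraries) in 4 gene families, for the EV groups of each line and series. SLC2A3 leads the carriers in Molm-14 (61.0% and 53.8%) and is a sliver in THP-1 (0.606%), and PFKFB3 makes up 94.2% and 91.6% of its family in Molm-14.

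Among the enzymes of fructose-2,6-bisphosphate, the lines differed in the share of each gene. PFKFB2 had 16.7, 15.5 and 15.7 CPM in MV4-11 EV and 0 counts in all Molm-14 EV libraries of the miR-1 series, and 23.2, 18.3 and 19.4 CPM against 0 in the MPC1 series. With a floor of 3 counts over the Molm-14 group it was at least 265-fold and at least 152-fold higher in MV4-11, and at least 55.9-fold higher in THP-1. PFKFB4 was higher in MV4-11 (2.97 and 2.27) and PFKFB3, the form with the strongest kinase activity, was lower (−1.63 and −1.90). PFKFB3 made up 94.2% ± 1.2 and 91.6% ± 0.95 of the 3 genes in Molm-14 EV, 33.9% ± 7.2 and 24.9% ± 1.4 in MV4-11 EV, and 48.6% ± 4.6 in THP-1 EV.

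All 3 hexokinases were higher in MV4-11 than in Molm-14, HK1 by 1.56 and 1.72, HK2 by 0.73 and 0.54, and HK3 by 2.11 and 3.52 on the log2 scale. HK3 had 5.91, 5.93 and 6.42 CPM in MV4-11 EV and 1.07, 1.37 and 1.75 CPM in Molm-14 EV of the miR-1 series. In lower glycolysis, PGK1 stood at −0.04 and 0.00, PGAM1 at −0.37 and −0.49 and GAPDH at −0.30 and −0.21. The scarce ENO2 had the largest difference of that role in the miR-1 series, with 1.01, 0.538 and 0.936 CPM in Molm-14 EV against 2.43, 1.88 and 4.30 CPM in MV4-11 EV (1.78, edgeR FDR 0.00168). In lactate handling, SLC16A1 was lower in MV4-11 (−0.53 and −1.13) and SLC16A3 higher (0.65 and 0.42), and LDHB was lower (−0.66 and −0.74), while LDHA was not called in either series (−0.02 and 0.09). SLC16A1 made up 30.2% ± 2.1 and 41.1% ± 5.2 of these 2 exporters in MV4-11 EV and 49.3% ± 0.10 and 66.7% ± 2.4 in Molm-14 EV. PGD was higher in MV4-11 both times (0.33, edgeR FDR 2.77e-06, and 1.05, edgeR FDR 3.74e-10).

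In the remaining roles the leading genes differed less. SLC16A1 stood at 128, 126 and 124 CPM in MV4-11 EV, 273, 269 and 283 CPM in Molm-14 EV and 234, 234 and 228 CPM in THP-1 EV of the MPC1 series. LDHB, the subunit that favors pyruvate formation, had 179, 157 and 169 CPM in MV4-11 EV and 274, 267 and 255 CPM in Molm-14 EV of the miR-1 series. No library of one line reached the other for either gene. PGAM1, the phosphoglycerate mutase, stood at 33.1, 28.7 and 27.0 CPM in MV4-11 EV and 42.5, 34.2 and 48.7 CPM in Molm-14 EV of the MPC1 series, and at 12.2, 16.3 and 8.70 CPM in THP-1 EV. PGLS, the lactonase of the oxidative branch, had 124, 112 and 131 CPM in MV4-11 EV and 99.2, 96.7 and 91.7 CPM in Molm-14 EV of the miR-1 series (0.35, edgeR FDR 5.01e-05). PFKM, uncertain as above, had 4.88, 5.52 and 5.71 CPM in MV4-11 EV and 2.19, 2.25 and 1.45 CPM in Molm-14 EV of the MPC1 series (1.44, edgeR FDR 3.68e-05). It was not called in the miR-1 series (0.40, edgeR FDR 0.247). ALDOC in the miR-1 series was called through the spread-out MV4-11 EV libraries given above, against 6.31, 5.02 and 5.62 CPM in Molm-14 EV (1.48, edgeR FDR 0.0273), and the MPC1 series gave −0.34 (edgeR FDR 0.103).

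**Figure D5:**
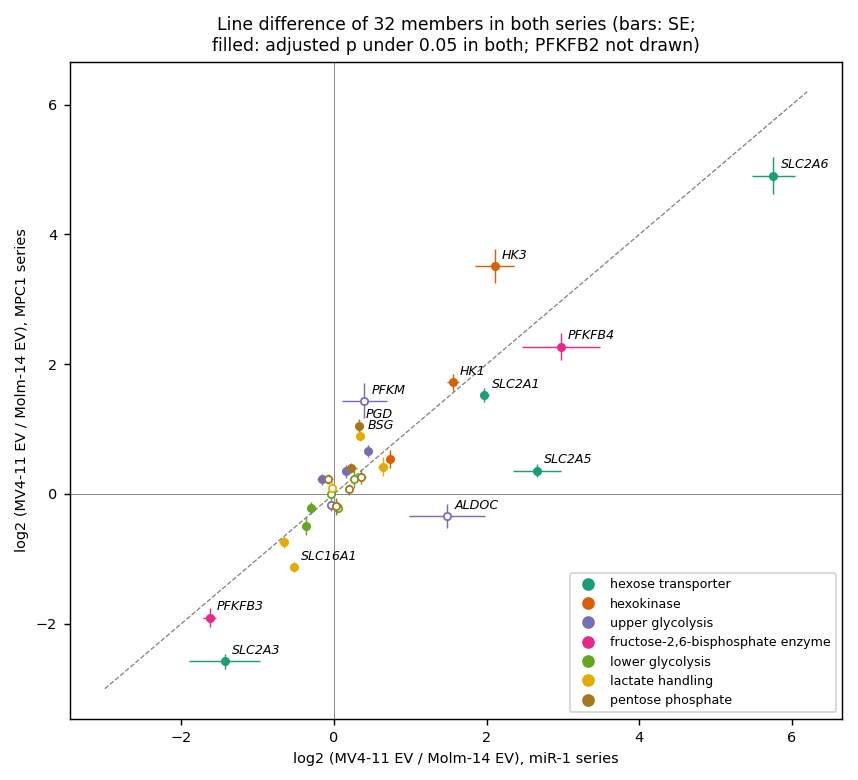
Log2 ratio of MV4-11 EV to Molm-14 EV for 32 members, in the miR-1 series (x axis) and the MPC1 series (y axis), with bars of 1 SE and filled points where the FDR is under 5% in both. PFKFB2, which has no counts in Molm-14, is not drawn. SLC2A6 (5.76 and 4.91) lies at the upper right, SLC2A3 (−1.43 and −2.58) and PFKFB3 (−1.63 and −1.90) lie at the lower left, and SLC2A5 (2.66 and 0.36) lies off the diagonal.

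THP-1 EV was compared with the other lines within the MPC1 series. Against MV4-11 EV, 30 of 33 members were called (67.5% of all genes), 7 higher in THP-1 (34.6%) and 23 lower (32.9%), and the median log2 fold change was −0.55 among members and 0.01 among all genes. Against Molm-14 EV, 25 were called (69.6%), 8 higher (35.5%) and 17 lower (34.1%), with a median of −0.19. These comparisons use the same THP-1 libraries. GAPDH had 1212, 1152 and 1107 CPM in THP-1 EV, 2935, 2623 and 2799 CPM in MV4-11 EV and 3478, 3061 and 3158 CPM in Molm-14 EV. THP-1 lay below both lines without overlap. PFKP, the platelet phosphofructokinase, had 63.8, 58.8 and 60.9 CPM in THP-1 EV and 183, 160.03 and 163 CPM in Molm-14 EV (−1.46, edgeR FDR 1.02e-14). TKT, the transketolase, had 236, 203 and 196 CPM in THP-1 EV and 524, 459 and 502 CPM in MV4-11 EV. Neither gene overlapped between the lines named.

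GPI (154, 150.3 and 180 CPM in THP-1 EV, log2 fold change −1.70 against MV4-11), TPI1 (−1.21) and TKT (−1.22) were lower in THP-1 as well. HK1 stood at 24.7, 25.7 and 29.4 CPM in THP-1 EV and 67.9, 76.9 and 80.3 CPM in MV4-11 EV (log2 fold change −1.499), and HK2 was lower too (−1.48). PGK1, which makes ATP in lower glycolysis, was not called against either line (0.07 and 0.08). SLC2A5 was higher in THP-1 than in either line (2.38 and 2.74) and SLC2A3, at 2.79, 2.24 and 2.36 CPM, was lower (−2.25 and −4.83). SLC2A6, at 22.5, 19.3 and 19.9 CPM in THP-1 EV, was higher than in Molm-14 EV (5.34, edgeR FDR 1.23e-15). HK3, uncertain as above, was also higher in THP-1 EV than in Molm-14 EV, at 14.4, 15.2 and 10.9 CPM (4.22, edgeR FDR 1.73e-14). SLC16A1 was 0.88 higher than in MV4-11 and 0.24 lower than in Molm-14.

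Another 43 genes of these pathways that were not members, such as TIGAR and the remaining SLC2A carriers, were also listed, and 27 were tested. In MV4-11 KO 2 of the 27 were called (7.41%, against 5.41% of all genes) and both rose, GALM, galactose mutarotase (0.49, edgeR FDR 0.0166), and DERA, which splits deoxyribose phosphate (0.37, edgeR FDR 0.0452). In the mean over the lines GALM was called (0.28, edgeR FDR 0.0290), and MINPP1 differed in its KO effect between MV4-11 and Molm-14 (0.59, edgeR FDR 0.0435). None was called in KO of Molm-14 or THP-1 or in either OE comparison. An unadjusted edgeR p under 0.05 was held by 3 and 1 in KO, against 1552 and 1160 of 14490 genes. In the OE comparisons it was held by 4 and 2, against 1035 and 768 of 17542 genes.

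Regulators of these pathways were described by the same counts. TXNIP and ARRDC4, arrestins that hold back glucose uptake and are induced when glucose phosphates build up, were called lower in KO. ARRDC4 fell in MV4-11, Molm-14 and THP-1 (−1.16, −0.61 and −1.02, edgeR FDR 3.17e-08, 0.00318 and 4.25e-07). Of all genes, 5.41%, 2.4% and 0.0897% were called in KO of these lines. TXNIP fell in MV4-11 and THP-1 (−0.59 and −0.64, edgeR FDR 7.27e-05 and 6.67e-05), with −0.07 in Molm-14 (edgeR FDR 0.853), and its effect differed between MV4-11 and Molm-14 (edgeR FDR 0.0167). Of the hypoxia-response list, 15 were tested in the MPC1 series. BNIP3L alone was called in MV4-11 KO (0.35, edgeR FDR 0.0257), against 5.41% of all genes. BNIP3L and DDIT4 were called in the mean over lines (0.21 and 0.37, edgeR FDR 0.0360 and 0.0132), against 3.37% of all genes. HIF1A, EPAS1, ARNT, MYC and MAX were called in none of the OE or KO comparisons with EV (edgeR). In MV4-11 KO 2 of these 5 had an unadjusted edgeR p under 0.05, against 3236 of 14490 genes. In MV4-11 KO the myeloid factor SPI1 was lower (−0.46, edgeR FDR 0.0486) and PTPRC higher (0.27, edgeR FDR 0.0422), and in Molm-14 KO LYZ was higher (0.96) and MPO lower (−1.11). The summed myeloid list of 12 genes stood at 7517 to 9300 CPM in MV4-11 EV and 7515 to 8558 CPM in MV4-11 KO, with no gene at 0 in either group. KRT18, of a list of 8 epithelial and fibroblast markers, was higher in MV4-11 KO (0.98, edgeR FDR 0.0278), and that list summed to 3.23 to 3.95 CPM in EV and 5.69 to 7.14 CPM in KO, with 6 and 3 of its genes at 0. The part of these genes in the member values was not tested.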

How the data were processed

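Gene counts of 30 libraries were analysed in 2 tables that were normalized separately, so tests were run within a table. The deposited values are raw counts per Ensembl gene. Per the labels and the study's methods, the authors prepared stranded total RNA libraries with ribosomal RNA depletion, trimmed reads (cutadapt 1.16 in the submitters' processing notes), removed optical duplicates, aligned reads to GRCh38 with STAR 2.7.6a and assigned them to genes with featureCounts 1.6.3. The strand setting is not given in the sources used here. The tables list 60675 (miR-1) and 58051 (MPC1) genes and thus differ in annotation. Of these, 60419 and 56948 matched GENCODE release 44, from which symbols, positions and lengths were taken.

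Counts were fitted with edgeR 4.0.16 in R 4.3.3 (filterByExpr, TMM, robust quasi-likelihood, group means, all libraries of a series in 1 model). Genes with a Benjamini-Hochberg FDR under 5% over all genes tested were called, and intervals cover 95%. No other per-sample column was present, and floors of 3 counts over a group cover counting error only. Replicate pairs differed by more than sampling noise (chi-square per degree of freedom 1.55 to 17.8), and every library was kept. The fits were also run on counts simulated gene by gene, which hold no shift shared by the genes of a library. The outcome of that run is not given here.

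Alternatives were DESeq2 1.42.0, its size factors in edgeR, a minimum of 1 count, a replicate block, the compared libraries alone, and each library left out. The members and lists were chosen with earlier results of these data known. Values for every library are given for members called in OE or KO of a line, in that line. They are also given for members with the largest line difference in a role, chosen by a fixed rule, in at least 1 such comparison. Members that varied among MV4-11 libraries were added after the data were seen.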

Additional observations from a re-analysis of the deposited data

Results flagged for a closer look

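The KO effect of 2 members differed among MV4-11, Molm-14 and THP-1 by a joint test of the differences (edgeR over all genes tested). For SLC2A5 the FDR was 0.00785, with log2 fold changes of 0.70 in MV4-11, 0.32 in Molm-14 and 0.02 in THP-1 (n = 3 libraries a group, edgeR). For PGD the FDR was 0.0120, with log2 fold changes of −0.62, 0.10 and −0.23. Its joint FDR ran from 5.88e-05 to 0.0594 with a library left out, and the call was lost without MV4-11 EV replicate 3 of the MPC1 series. That of SLC2A5 ran from 0.00331 to 0.0303. Every group held 3 libraries, too few to test a single library for standing apart.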

How the results depend on the processing

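Counts of called members moved by over 1.5 times in these cases. They are counts of members alone, and the share of all genes called under each alternative is not given. For the difference of the KO effect among lines (2 members), DESeq2 gave 4 and a minimum of 1 count gave 5, and leaving out a library gave 1 (without MV4-11 EV replicate 3) to 4 (without MV4-11 EV replicate 1). For MV4-11 KO (5), the 6 compared libraries alone gave 2, SLC2A5 and PGD, and leaving out a library gave 2 to 8. For the mean KO effect (3), leaving out a library gave 2 to 5, with 5 without MV4-11 EV replicate 1. For Molm-14 KO (0), a minimum of 1 count gave 1, HK1. The cause was not tested. The other 166 counts were within 1.5 times, among them 0 for every OE comparison. For members with a value of their own, 600 values stayed on their side of the threshold and 33 lost their call. Another 1 gained a call, LDHA in the mean KO effect (−0.15 without MV4-11 EV replicate 1, edgeR FDR 0.0304). The sign of some uncalled values turned with a library left out. In THP-1 KO the log2 fold change ran from −0.036 to 0.109 for SLC2A5 and from −0.038 to 0.107 for GPI.

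Replicate numbers are shared between groups, but same-numbered libraries deviated together in none of the comparisons by the criterion of a correlation over 0.1 in every pair. In THP-1 each KO library correlated best with the EV library of its own number (0.179, 0.0987 and 0.330), a hint from the data only. With the replicate block, 5 members were called in MV4-11 KO, 0 in Molm-14 KO, THP-1 KO and the OE comparisons, 4 in the mean KO effect and 3 in the difference among lines. Between EV groups the block gave 26 members in either comparison of MV4-11 with Molm-14, 30 for THP-1 against MV4-11 and 25 for THP-1 against Molm-14. Without the block, 61.7% to 69.6% of all genes were called in these comparisons of EV groups. Shares of all genes with the block are not given, so its counts compare settings only. The shallower MPC1 series limits low members such as ENO2, PFKM and HK3.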

Other observations

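The same line had unlike levels of some members in the separately normalized tables, so no level was tested between them. In MV4-11 EV, ALDOA stood at 110 ± 6.4 CPM (SD, n = 3) in the miR-1 series and 1097 ± 60 CPM in the MPC1 series, a ratio of 10.01. In Molm-14 EV the ratio was 7.67. ENSG00000285043, a gene that overlaps ALDOA on its own strand, is listed in the miR-1 table alone, at 4.12 CPM. PGAM1 went the other way, with 260 ± 13 CPM and 29.6 ± 3.1 CPM in MV4-11 EV, a ratio of 8.79, and 8.04 in Molm-14 EV. LDHB stood at 168 ± 11 CPM and 815 ± 100 CPM in MV4-11 EV, a ratio of 4.84, and 5.12 in Molm-14 EV. Per kilobase, LDHA made up 71.8% ± 0.95 of the pair LDHA and LDHB in MV4-11 EV of the miR-1 series and 27.2% ± 5.2 in the MPC1 series, so the leading subunit depended on the table.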
